A study of Mesocricetus auratus with 64 samples.

Results

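The piRNA processing enzymes and silencing cofactors described here are 9 genes, Mov10l1, Asz1, Gpat2, Pnldc1, Henmt1, Gtsf1, Mael, Fkbp6 and Ddx4. They were taken by gene name from the 32303 gene rows that each of the 32 long RNA libraries of this golden hamster series held, and all 9 names were found and passed the filter on low counts in every test. The libraries came from hamsters of the Syrian breed and compared wild-type samples (WT) with samples labelled as Pld6 KO (KO). Testis was taken at 3 weeks of age, with 3 libraries per genotype. Oocytes at the germinal vesicle (GV) and metaphase II (MII) stages and embryos labelled 10PEA, 1C-20PEA, 33PEA and 54PEA gave 2 libraries per genotype and stage, each labelled as made from single oocytes or embryos. A further pair of KO MII libraries carried the mark D321. The labels do not spell out PEA or D321, do not describe the Pld6 allele or how it was made, and name no animal for any library, so the spread behind each p-value is that between libraries and may be technical.

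piRNAs are small RNAs that guide PIWI proteins to transposon transcripts in the germline. Long precursor RNAs are carried to the outer face of mitochondria, cut there by the endonuclease PLD6, loaded into PIWI proteins, trimmed and methylated at the 3′ end, and then used to slice or transcriptionally silence transposons. In mice most genes of the pathway are needed by male germ cells and dispensable for the oocyte, whereas hamster oocytes carry abundant piRNAs. The 9 genes cover these steps after and around PLD6. Mov10l1 encodes an RNA helicase that binds precursors, and Asz1 and Gpat2 encode mitochondrial partners of the processing complex. Pnldc1 encodes the exonuclease that trims 3′ ends, and Henmt1 the methyltransferase that protects them. Gtsf1 encodes a PIWI cofactor, Mael a protein of the germ granule, Fkbp6 a co-chaperone and Ddx4 the vasa-type RNA helicase of germ cells. These roles are known mostly from mouse.

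Gene counts per library were 31572737 to 34257661 in testis and 1544198 to 11031837 in oocytes and embryos, and ERCC spike-in RNA made up 0.361% to 77.8% of the oocyte and embryo counts. Levels below are counts scaled to 1000000 gene counts per library (CPM). Log2 changes come from edgeR's quasi-likelihood test with TMM scaling and are given with their standard error (SE); a gene is called changed when its p, adjusted by Benjamini and Hochberg over all genes tested, is under 0.05. The 95% intervals below use a normal limit on the SE, so they are somewhat narrower than the test itself allows. The 2 KO-54PEA libraries stood apart. They were the shallowest, held the largest ERCC shares and had counts for only 5381 and 4403 genes. Over genes with a count in at least 1 of the 2 libraries, their Spearman correlation with each other was −0.10. The same measure, which leaves out genes at 0 in both libraries, was 0.53 for the KO-33PEA pair. It was 0.69 or more for every other pair of one group. Pld6 itself averaged 44.2 ± 6.80 CPM in WT testis and 3.55 ± 1.27 CPM in KO testis (SD, n = 3), and was called lower with a log2 change of −3.51 (SE 0.32, adjusted p = 2.46e-05). At GV the Pld6 row averaged 34.0 ± 3.02 CPM over the WT libraries and 32.3 ± 13.6 CPM over the KO libraries (SD, n = 2), so at that stage the counts of the targeted gene did not separate the genotypes; whether the counted transcript includes the altered part is not stated. The oocyte marker genes, 8 of 10 with a row, summed to 12063 to 15073 CPM in the 4 GV libraries, and the granulosa and cumulus markers, 7 with a row, to 15.7 to 40.8 CPM, with Amh, Has2 and Ptx3 at 0.

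In testis all 9 genes were lower in KO, and all 9 were called. Of all 18024 genes tested there, 30.2% were called lower and 58.0% in either direction. The summed level of the 9 genes averaged 1621 ± 172 CPM over the WT libraries and 34.2 ± 7.76 CPM over the KO libraries (SD, n = 3). The median log2 change of the 9 genes was −4.93, against 0.03 over all genes tested. For every gene the highest KO library lay below the lowest WT library, a pattern that 37.7% of all tested genes shared.

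Among the genes of precursor handling, Mov10l1 was at 194, 204 and 171 CPM in WT testis and at 7.10, 4.41 and 10.4 CPM in KO testis. The Mov10l1 mean was 25.9-fold lower in KO (189.8 ± 17.1 against 7.32 ± 3.03 CPM, SD, n = 3). Asz1 was at 37.6, 37.2 and 51.1 CPM in WT and at 1.95, 1.09 and 2.57 CPM in KO. Gpat2, whose WT libraries were the most even of the set, was at 168, 160 and 162 CPM in WT and at 4.30, 4.14 and 6.18 CPM in KO. The log2 changes were −4.56 (SE 0.33) for Mov10l1, −4.37 (SE 0.36) for Asz1 and −4.93 (SE 0.25) for Gpat2, with adjusted p values of 5.93e-06, 1.26e-05 and 1.54e-06.

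The 3′ end enzymes showed the smallest of the 9 changes. Pnldc1 was at 34.1, 29.4 and 36.1 CPM in WT testis and at 1.57, 3.34 and 4.69 CPM in KO testis, a log2 change of −3.23 (SE 0.40, adjusted p = 1.51e-04). Henmt1 was at 20.6, 18.6 and 21.0 CPM in WT and at 6.09, 4.65 and 3.71 CPM in KO, a log2 change of −1.94 (SE 0.27, adjusted p = 2.61e-04). KO testis thus kept Henmt1 counts at a mean 4.17-fold below WT, while the other 8 genes were 10.4-fold to 135-fold below WT. The 95% interval of the Henmt1 change, −2.46 to −1.42 overlapped that of Pnldc1, −4.02 to −2.45, and lay above those of the others, the nearest being Asz1 at −5.07 to −3.66.

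The cofactors showed the largest changes. Gtsf1 was at 122, 104 and 135 CPM in WT testis and at 1.88, 1.46 and 2.66 CPM in KO testis, and Mael at 411, 392 and 497 CPM in WT and at 7.38, 3.83 and 3.77 CPM in KO. Fkbp6 was at 412, 326 and 385 CPM in WT and at 3.46, 1.76 and 3.07 CPM in KO. Ddx4 was at 207, 185 and 342 CPM in WT and at 3.64, 0.669 and 2.79 CPM in KO; its WT replicate 3 was the high one. Every KO library of these 4 genes was under 8 CPM. Log2 changes were −5.78 (SE 0.31) for Gtsf1, −6.33 (SE 0.32) for Mael, −6.96 (SE 0.31) for Fkbp6 and −6.59 (SE 0.58) for Ddx4, with adjusted p values of 1.60e-06, 1.54e-06, 1.39e-06 and 1.88e-05. No gene lost its call when any of the 6 testis libraries was left out.

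**Figure D1:**
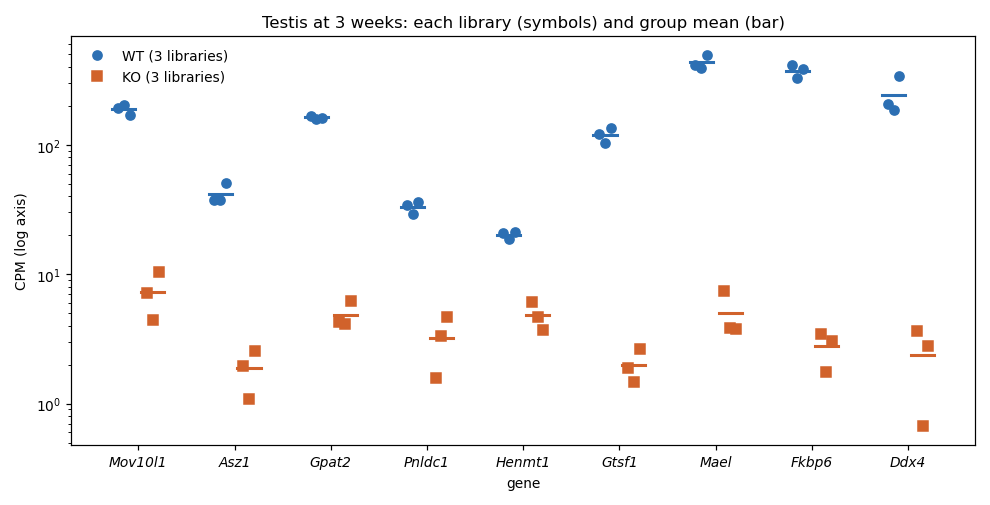
Level of each of the 9 genes in testis (CPM, log axis). Symbols are the 3 WT and 3 KO libraries and short bars the group means; for each gene all KO libraries lie below all WT libraries, with the narrowest gap for Henmt1.

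Most germ cell markers in testis were called lower in KO, as the 9 genes were, while most Sertoli and Leydig markers were called higher. The part of these cell types in the result was not tested. Of the spermatogonia markers 10 of 13 were called lower (median log2 change −2.16), and their summed level ran from 1143 to 1293 CPM across WT libraries and from 307 to 359 CPM across KO libraries. All 13 early meiosis markers were called lower (median −4.80; summed level 1426 to 1867 CPM against 41.9 to 73.3 CPM), as were all 10 markers of pachytene and later spermatocytes (median −7.01; 2752 to 4098 CPM against 31.0 to 48.1 CPM). Of the Sertoli markers 8 of 9 were called higher (median 1.32; 7146 to 7981 CPM against 14211 to 21662 CPM), and all 5 Leydig markers were (median 2.74; 424 to 494 CPM against 2539 to 2963 CPM). No spermatogonia, meiosis or spermatocyte marker was at 0 in all KO libraries. In whole testis, fewer cells of a type and less RNA per cell cannot be told apart. The rest of the piRNA pathway list moved with the 9 genes too. Of 31 genes listed, 29 had a row and 27 were tested; 25 were called lower and 1 higher, with a median log2 change of −3.78. The gene called higher was Dnmt3l, a cofactor of DNA methyltransferases, with a mean of 0.273 ± 0.0682 CPM over the WT and 0.818 ± 0.492 CPM over the KO libraries (log2 change 1.68, SE 0.58, adjusted p = 0.0323). The gene not called was Mybl1, a transcription factor of pachytene spermatocytes in mouse, with a mean of 32.1 ± 8.46 CPM over the WT and 36.6 ± 22.9 CPM over the KO libraries (log2 change 0.29, SE 0.38, adjusted p = 0.540). Both were singled out after their values were seen.

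In WT oocytes and embryos every one of the 9 genes was detected in both GV libraries. Henmt1 was at 321.2 and 286 CPM at GV, 177 and 150 CPM at MII, 369 and 413 CPM at 10PEA, 455 and 353 CPM at 1C-20PEA, 61.3 and 0 CPM at 33PEA and at 0 in both libraries at 54PEA. Its levels at 1C-20PEA, 10PEA and GV were the highest 3 of its WT stage means, with overlapping libraries at 1C-20PEA and 10PEA. Ddx4 was at 731 and 678 CPM at GV, 1130 and 779 CPM at MII, 1001 and 967 CPM at 10PEA, 979 and 367 CPM at 1C-20PEA, 221 and 244 CPM at 33PEA and 4.94 and 0.267 CPM at 54PEA. In the order of the Ddx4 means, 10PEA and MII overlapped and GV lay below both. The 1C-20PEA libraries, far apart from each other, overlapped 10PEA, MII and GV, and 33PEA and then 54PEA lay lower without overlap. Of the 36 pairs among the 9 genes, Henmt1 and Ddx4 were the most alike over the 13 oocyte and embryo groups (Pearson r = 0.92 of log2(mean TMM CPM + 1), a description, since the groups share stages).

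Gtsf1 was at 565 and 590 CPM at WT GV, 65.6 and 66.2 CPM at MII, 114 and 95.1 CPM at 10PEA, 207 and 320.9 CPM at 1C-20PEA, 14.5 and 17.7 CPM at 33PEA and 16.5 and 11.5 CPM at 54PEA. Its order was GV, 1C-20PEA, 10PEA and MII, with no overlap of libraries between neighbours, and then 33PEA and 54PEA, which overlapped. Mael was at 125 and 132 CPM at GV, 12.1 and 10.2 CPM at MII, 85.7 and 46.9 CPM at 10PEA, 202 and 188 CPM at 1C-20PEA, 5.51 and 16.0 CPM at 33PEA and 17.1 and 9.36 CPM at 54PEA. Mael was highest at 1C-20PEA and then GV, and its 3 lowest stages, MII, 33PEA and 54PEA, overlapped. Fkbp6 was at 107 and 126 CPM at GV and below 41 CPM at every later stage, with 2.80 and 6.98 CPM at MII and 26.7 and 40.7 CPM at 1C-20PEA.

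Mov10l1 was at 24.9 and 16.9 CPM at WT GV and at 8.23 and 1.34 CPM at 54PEA, and the libraries of neighbouring stages in its order, 10PEA, GV, MII, 1C-20PEA, 33PEA and 54PEA, overlapped in every case. Asz1 had 13.3 and 15.2 CPM at GV and was at 0 in 1 WT library each at 10PEA, 1C-20PEA and 33PEA. Gpat2 was at 4.70 and 7.04 CPM at GV, 1.79 and 3.08 CPM at MII, below 2 CPM in every later WT library and at 0 in both 33PEA libraries. A count of 0 in both of those libraries allows up to 0.299 CPM, taking 3 counts over the group as the limit, for counting error only.

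Pnldc1 had another course. It was at 245 and 211 CPM at WT GV, 239 and 175 CPM at MII, 268 and 299 CPM at 10PEA, 148 and 171 CPM at 1C-20PEA, 1925 and 2013 CPM at 33PEA and 1252 and 923 CPM at 54PEA. The stage 33PEA was highest and 54PEA the next, both without overlap, and the GV and MII libraries overlapped. Over the 13 groups Pnldc1 was negatively correlated with each of the other 8 genes (r from −0.73 with Henmt1 to −0.06 with Asz1), whereas 26 of the 28 pairs without Pnldc1 had an r above 0, up to 0.92. These are descriptions over groups that share stages.

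**Figure D2:**
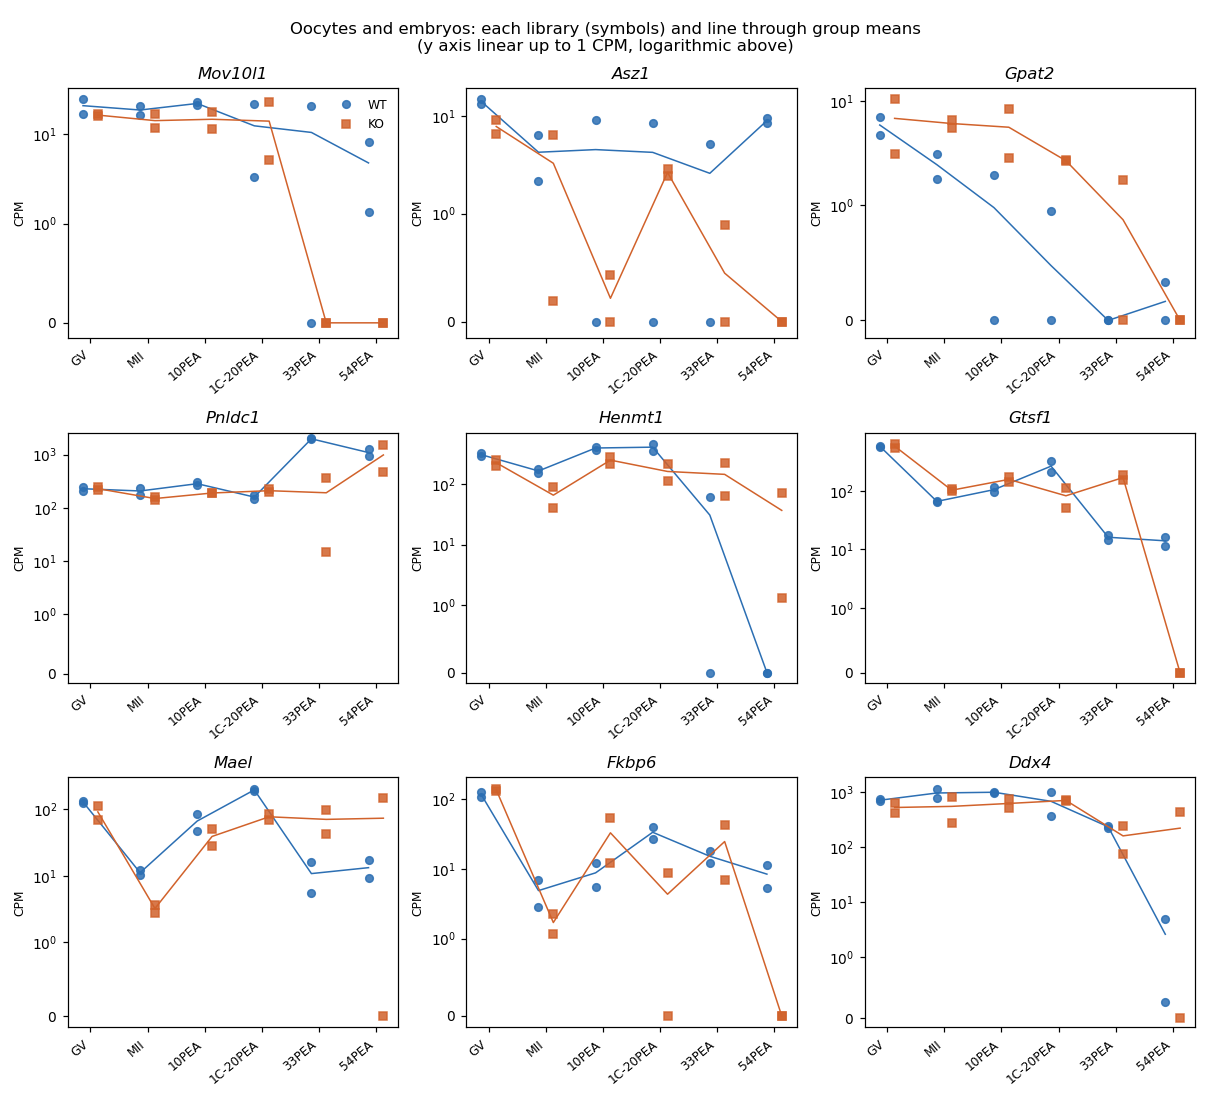
Level of each gene in oocytes and embryos by stage (CPM; the axis is linear up to 1 CPM and logarithmic above). Symbols are the 2 libraries of each group and lines join group means; Pnldc1 in WT is the line that is highest at 33PEA (1925 and 2013 CPM), and Henmt1 in WT reaches 0 at 54PEA.

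From GV to MII in WT, none of the 9 genes was called by edgeR, where 0.202% of 17294 genes tested were. Without adjustment, 1589 genes and 3 of the 9, Gtsf1, Mael and Fkbp6, had p under 0.05. Their log2 changes were −2.72 (SE 0.75) for Gtsf1, −3.12 (SE 1.41) for Mael and −4.13 (SE 1.57) for Fkbp6, against a median of −0.38 over all genes. limma with quality weights called these 3 genes lower and DESeq2 called Gtsf1 and Fkbp6 lower. No member was called from MII to 10PEA or from 10PEA to 1C-20PEA by edgeR, limma or DESeq2, where 0% of genes were called by edgeR and 477 and 544 genes had an unadjusted p under 0.05.

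From 1C-20PEA to 33PEA in WT, 3 of the 9 genes were called, where 20.6% of all genes were (4.96% higher and 15.7% lower) and the median over all genes was −1.23. Pnldc1 was called higher, from 159 ± 16.1 to 1969 ± 62.4 CPM (SD, n = 2; log2 change 3.47, SE 0.98, adjusted p = 0.0173). Gtsf1 was called lower, from 264 ± 80.8 to 16.1 ± 2.30 CPM (log2 change −4.20, SE 0.80, adjusted p = 0.00189). Mael was called lower, from 195 ± 10.0 to 10.8 ± 7.46 CPM (log2 change −4.37, SE 1.49, adjusted p = 0.0416). The Gtsf1 call held without any one of the 4 libraries. The Pnldc1 call was lost without WT-1C-20PEA replicate 1 (log2 change 3.37) or 2 (3.56) or WT-33PEA replicate 2 (3.51), and the Mael call without any one of the 4 (−5.23 to −3.84).

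Relative to the ERCC RNA added in equal amount to each oocyte or embryo, the counts of all genes together were lower at 33PEA than at GV in WT, from 258 and 276 gene counts per ERCC count to 7.31 and 8.35. The counts of each of the 9 genes were lower too. Replicates of one group could differ widely on this scale, as at WT-1C-20PEA, with 57.55 and 11.8 gene counts per ERCC count. Pnldc1 was at 63.3 and 58.4 counts per 1000 ERCC counts at GV, 8.51 and 2.01 at 1C-20PEA, 14.1 and 16.8 at 33PEA and 22.7 and 19.9 at 54PEA. On this scale Pnldc1 at 33PEA was above both 1C-20PEA libraries but was 25.4% of its GV level, and the step from 1C-20PEA to 33PEA was no longer called (log2 change 1.55). The other 8 genes at 33PEA were between 0% and 1.38% of their GV level per ERCC count. The highest of these was Mov10l1 at 1.38%, and Ddx4 was at 0.971%. Henmt1 was at 82.9 and 78.9 counts per 1000 ERCC counts at GV and 0.448 and 0 at 33PEA.

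From 33PEA to 54PEA in WT, 2 of the 9 genes were called, both lower, where 7.08% of all genes were called (2.47% higher and 4.61% lower). Ddx4 went from 232 ± 16.1 to 2.60 ± 3.30 CPM (SD, n = 2; log2 change −6.60, SE 1.67, adjusted p = 0.0176). Henmt1 was called lower with no count in either 54PEA library, but 1 of its 33PEA libraries had none either. The Henmt1 call was lost without WT-33PEA replicate 1, when no count was left on either side, and without WT-54PEA replicate 2; the Ddx4 call was lost without WT-54PEA replicate 2 (log2 change −6.35). Both calls were lost with ERCC scaling (−5.26 for Ddx4), and that of Henmt1 with limma. From GV to 54PEA, Gtsf1 (log2 change −5.67, SE 0.86, adjusted p = 9.37e-05), Ddx4 (−8.42, SE 1.81, adjusted p = 0.00200) and Henmt1 (adjusted p = 7.24e-04) were called lower, where 21.6% of all genes were called (3.15% higher and 18.5% lower) and the median over all genes was −1.21. These 3 calls held without any one of the 4 libraries.

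In KO against WT, none of the 9 genes was called at GV, MII, 10PEA or 1C-20PEA, where edgeR called 0% of the 17294 genes tested. Without adjustment, 28, 707, 266 and 1048 genes had p under 0.05 at these stages, and of the 9 genes only Gtsf1 at 1C-20PEA did. limma with quality weights called none of the 9 at these stages, and DESeq2 called 1, Gtsf1 at 1C-20PEA. Gtsf1 there was at 207 and 320.9 CPM in WT and at 114 and 50.7 CPM in KO (log2 change −1.50, SE 0.72, adjusted p = 0.768 by edgeR). The summed level of the 8 oocyte markers was also lower in KO at 1C-20PEA, at 11994 to 17408 CPM in WT libraries against 3133 to 6343 CPM (median log2 change −1.14, none called), and their part in the result was not tested.

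At GV the WT and KO levels in CPM were close for 2 of the more deeply counted genes. Gtsf1 was at 565 and 590 CPM in WT and 530 and 630 CPM in KO, with a log2 change of −0.01 and a 95% interval of −1.39 to 1.37. Pnldc1 was at 245 and 211 CPM in WT and 246 and 211 CPM in KO, with a log2 change of −0.03 and an interval of −1.77 to 1.72. For the other 7 genes the intervals were wider, as for Ddx4, at 731 and 678 CPM in WT and 626 and 414 CPM in KO (−3.04 to 2.06). These intervals leave room for a difference in either direction in each of the 9 genes.

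Henmt1 was lower in both KO libraries than in both WT libraries at GV, MII, 10PEA and 1C-20PEA, without passing the test at any of them. The KO libraries were at 246 and 201 CPM at GV, 40.6 and 89.9 CPM at MII, 279 and 215 CPM at 10PEA and 209 and 112 CPM at 1C-20PEA. The means were 1.36-fold, 2.51-fold, 1.58-fold and 2.52-fold below WT. Over all genes tested, all KO libraries lay below all WT libraries for 14.5%, 20.5%, 22.9% and 26% at these stages, and for 4 of the 9 genes at each. They lay above for 15.9%, 6.51%, 13% and 12.5% of all genes and for 1, 2, 3 and 2 of the 9. Gpat2 was above WT without overlap at MII, 10PEA and 1C-20PEA, all under 9 CPM. Mael was below at GV, MII and 1C-20PEA, with 68.1 and 85.5 CPM in KO at 1C-20PEA.

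The KO MII libraries marked D321 gave no call for any of the 9 genes against WT MII or against the other KO MII libraries by edgeR, limma or DESeq2, where edgeR called 0% of genes and 278 and 786 genes had an unadjusted p under 0.05. Henmt1 was at 105 and 61.6 CPM in them, below WT MII (177 and 150 CPM) and overlapping the other KO MII libraries (40.6 and 89.9 CPM). Pnldc1 was at 235 and 265 CPM, with 239 and 175 CPM in WT MII and 139 and 160 CPM in KO MII. Mael was at 13.4 and 12 CPM, above the 3.68 and 2.77 CPM of KO MII and overlapping the 12.1 and 10.2 CPM of WT MII. The 2 comparisons share the D321 libraries.

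At 33PEA, 3 of the 9 genes were called in KO against WT, where 10.1% of all genes were called (5.66% higher and 4.46% lower). Gtsf1 was higher in KO, at 14.5 and 17.7 CPM in WT and 185 and 151 CPM in KO (log2 change 3.41, SE 0.78, adjusted p = 0.0116). Pnldc1 was lower in KO, at 1925 and 2013 CPM in WT and 14.6 and 368 CPM in KO (log2 change −3.35, SE 0.97, adjusted p = 0.0339). The groups did not overlap for either gene, and the KO libraries of Pnldc1 differed widely from each other. Mov10l1 was called lower (adjusted p = 0.0293) with no count in either KO library, at least 43.5-fold below the WT mean against 3 counts over the group, but 1 WT library also had none and the other held 21.0 CPM.

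These 3 calls rested on few libraries. The Gtsf1 call was lost without WT-33PEA replicate 1 (log2 change 3.35) or 2 (3.49), and with no filter on low counts (3.09, adjusted p = 0.0522). The Pnldc1 call was lost without WT-33PEA replicate 1 (−3.30), WT-33PEA replicate 2 (−3.39) or KO-33PEA replicate 1 (−2.40), the library at 14.6 CPM. The Mov10l1 call was lost without WT-33PEA replicate 1, its only WT library with counts, or without either KO library, and with limma (adjusted p = 0.187), which called Henmt1 in its place. None of the 9 genes was called with the 4 libraries of the stage fitted alone or with ERCC scaling. Per 1000 ERCC counts the groups remained apart for Gtsf1, at 0.106 and 0.148 in WT and 0.690 and 0.719 in KO. They were apart for Pnldc1 too, at 14.1 and 16.8 in WT and 0.0546 and 1.75 in KO. All genes together were lower in KO on this scale, at 7.31 and 8.35 gene counts per ERCC count in WT and 3.73 and 4.74 in KO. The share of all genes that were apart on this scale was not counted.

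Mael and Henmt1 were also above WT in both KO libraries at 33PEA without passing the test. Mael was at 5.51 and 16.0 CPM in WT and 97.9 and 42.5 CPM in KO (log2 change 2.77, SE 1.39, adjusted p = 0.180), and Henmt1 at 61.3 and 0 CPM in WT and 224 and 63.6 CPM in KO (log2 change 2.18, SE 1.48, adjusted p = 0.325). Over all genes, 20.2% had both KO libraries above both WT libraries at this stage and 20.8% had them below. Ddx4 overlapped, at 221 and 244 CPM in WT and 75.5 and 242 CPM in KO. The 8 oocyte markers moved the same way as Gtsf1: their summed level was 1115 to 1192 CPM in WT-33PEA and 5121 to 6176 CPM in KO-33PEA, 2 of 8 were called higher and the median log2 change was 2.32, and their part in the result was not tested. Of the other piRNA pathway genes 25 were tested, of which Prmt5, Tdrkh, Dnmt3l, Wdr77 and Adad2 were called higher (5 genes) and Pld6 and Piwil2 lower (2 genes). Values follow for 3 of them, singled out after their values were seen. Piwil2, a PIWI protein, was at 377 to 423 CPM in the WT libraries and at 0.598 to 4.18 CPM in the KO libraries (adjusted p = 0.0466). Prmt5, the arginine methyltransferase that modifies PIWI proteins, averaged 6.15 ± 7.36 CPM over the WT and 156 ± 59.0 CPM over the KO libraries (SD, n = 2; log2 change 4.62, SE 0.97, adjusted p = 0.00736). Tdrkh, a mitochondrial tudor protein that binds PIWI proteins during trimming, averaged 6.54 ± 9.25 CPM over the WT and 162 ± 66.5 CPM over the KO libraries (log2 change 4.57, SE 1.37, adjusted p = 0.0372).

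The step from 1C-20PEA to 33PEA was then compared between genotypes, a test added after the values were seen. Gtsf1 in KO went from 114 and 50.7 CPM to 185 and 151 CPM, where WT went from 207 and 320.9 CPM to 14.5 and 17.7 CPM, and the difference of the log2 steps, KO minus WT, was 4.91 (SE 1.05, adjusted p = 0.0169). Of all genes, 3.34% were called in this comparison and 1.97% in that direction. The 8 oocyte markers took a like course, their mean summed level going from 14701 to 1153 CPM in WT and from 4738 to 5648 CPM in KO, and their part in the Gtsf1 result was not tested. Pnldc1 in KO went from 222 and 197 CPM to 14.6 and 368 CPM, and its difference of −3.94 (SE 1.30, adjusted p = 0.0863) did not pass. Without the 54PEA groups in the fit, Gtsf1 (4.18) and Mael (3.25) were called with a higher step in KO and Pnldc1 (−4.70) and Mov10l1 with a lower one. With ERCC scaling none was called.

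**Figure D3:**
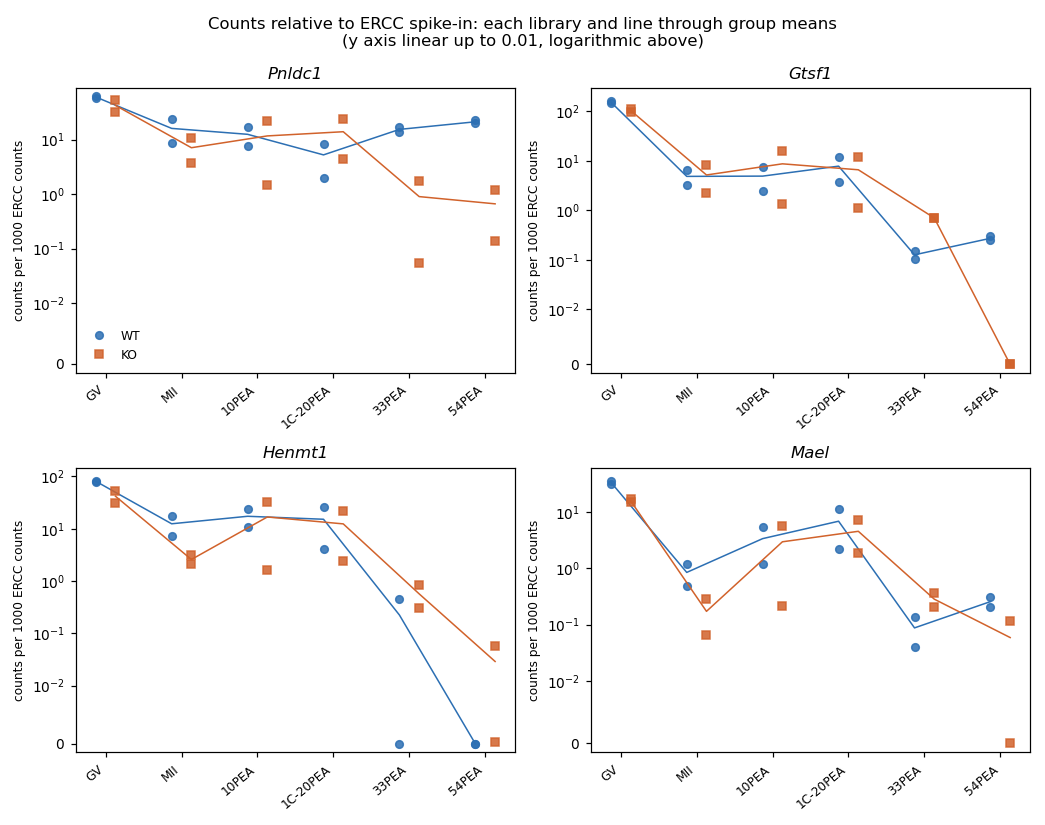
Counts per 1000 ERCC counts by stage for Pnldc1, Gtsf1, Henmt1 and Mael (the axis is linear up to 0.01 and logarithmic above). Symbols are libraries and lines join group means; at 33PEA the 2 KO libraries of Gtsf1 lie above the 2 WT libraries, and those of Pnldc1 below.

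At 54PEA, 5 of the 9 genes were called in KO against WT, where 20.9% of all genes were called (4.04% higher and 16.9% lower) and the median over all genes was −1.07. All 5 rest on the 2 KO-54PEA libraries that stood apart, in which 12 of the 18 values of the 9 genes were 0. Gtsf1 was at 16.5 and 11.5 CPM in WT and 0 in both KO libraries, at least 20.0-fold lower against 3 counts over the group (adjusted p = 4.60e-05), and this call held without any one of the 4 libraries. Fkbp6 was at 11.5 and 5.35 CPM in WT and 0 in both KO libraries, at least 12.1-fold lower (adjusted p = 0.0154). Mov10l1 was at 8.23 and 1.34 CPM in WT and 0 in both KO libraries, at least 6.85-fold lower (adjusted p = 0.0427). The Fkbp6 call was lost without either KO library, and the Mov10l1 call without either KO library or WT-54PEA replicate 1. Asz1, at 9.54 and 8.55 CPM in WT and 0 in both KO libraries, was not called (adjusted p = 0.0968), but was called lower with ERCC scaling and with the 4 libraries of the stage fitted alone. The Mov10l1 call was lost with RLE size factors (adjusted p = 0.0574) and with limma (adjusted p = 0.101).

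Henmt1 and Ddx4 were called higher in KO at 54PEA, each on 1 library. Henmt1 was at 0 in both WT libraries and at 71.9 and 1.30 CPM in KO (adjusted p = 0.00456), at least 165-fold higher against 3 counts over the WT group, and the call was lost without KO-54PEA replicate 1. Ddx4 was at 4.94 and 0.267 CPM in WT and at 0 and 439 CPM in KO (log2 change 5.29, SE 1.58, adjusted p = 0.0197), so the groups overlapped. Without KO-54PEA replicate 2 the Ddx4 change turned to −7.07, and without WT-54PEA replicate 2 the call was lost (4.44). The Ddx4 call was also lost with ERCC scaling (log2 change 0.40, adjusted p = 1), with limma (1.94, adjusted p = 0.762) and with the stage fitted alone (5.93, adjusted p = 0.404). Per 1000 ERCC counts Ddx4 was at 0.0895 and 0.00578 in WT and at 0 and 0.125 in KO. Pnldc1 overlapped, at 1252 and 923 CPM in WT and 1487 and 474 CPM in KO (log2 change −0.64, SE 0.89, adjusted p = 0.731). Per 1000 ERCC counts its groups did not overlap, at 22.7 and 19.9 in WT and 1.19 and 0.135 in KO. With ERCC scaling Pnldc1 was called lower. All genes together were lower in KO on this scale too. They were at 18.1 and 21.6 gene counts per ERCC count in WT and 0.802 and 0.286 in KO. The share of all genes without overlap on this scale was not counted. Mael was at 17.1 and 9.36 CPM in WT and 146 and 0 CPM in KO, and per 1000 ERCC counts its KO libraries, at 0.117 and 0, were below its WT libraries, at 0.310 and 0.202.

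The oocyte markers at 54PEA had a summed level of 84.5 to 113.5 CPM across WT libraries and 833 to 1881 CPM across KO libraries, with 4 of 8 called higher, and their part in the result was not tested. Of 25 other piRNA pathway genes tested at 54PEA, 2 were called higher and 3 lower.

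**Figure D4:**
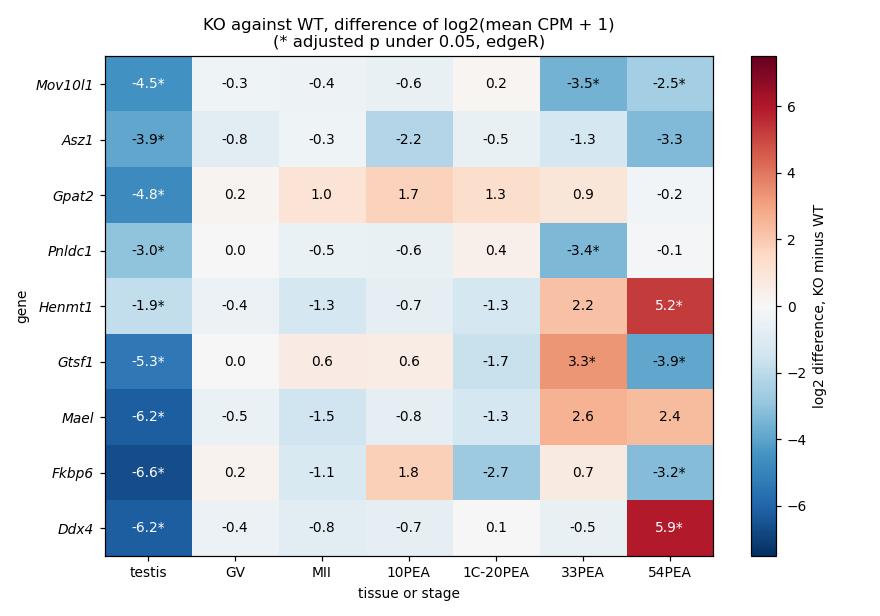
KO against WT for the 9 genes in testis and at the 6 stages, as the difference of log2(mean CPM + 1), which understates changes of low genes; asterisks mark an adjusted p under 0.05 by edgeR. All 9 genes are lower in KO testis, no asterisk stands from GV to 1C-20PEA, and Gtsf1 is higher at 33PEA and lower at 54PEA.

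Taking the difference between KO and WT over all 6 stages, the F test of whether it varies between stages called Gtsf1 (adjusted p = 3.89e-04), where 9.40% of all genes were called. It did not call the other 8 (adjusted p from 0.0647 for Henmt1 to 0.670 for Gpat2). Gtsf1 was called without any one of the 24 libraries. Between 1 and 4 of the 9 genes were called when 1 library was left out, and Henmt1 was among them in 19 of the 24 refits. For the average over the 6 stages, only Pnldc1, Mael and Ddx4 had counts in every group, and an average over a group with no count cannot be interpreted for the others. The average log2 changes were −0.73 (SE 0.37, adjusted p = 0.277) for Pnldc1, 0.14 (SE 0.53, adjusted p = 1) for Mael and 0.53 (SE 0.53, adjusted p = 0.944) for Ddx4. edgeR called 1 of the 9 genes, Mov10l1, one of those with empty groups, where 7.93% of all genes were called (1.69% higher and 6.24% lower).

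The KO difference in testis was compared with that in oocytes in one fit of all 32 libraries over 20541 genes. Testis and oocyte libraries were made with different kits, so tissue and kit cannot be told apart, but each genotype difference lies within a kit. For testis minus GV, Gtsf1 was called (difference of log2 changes −5.48, SE 0.71, adjusted p = 6.22e-04), where 0.180% of all genes were called. Another 6 of the 9 genes had an unadjusted p under 0.05, and the values ranged from −1.22 (SE 1.71) for Henmt1 to −6.91 (SE 1.66) for Fkbp6. This fit gives the testis libraries the spread of the embryo libraries; with the 6 testis and 4 GV libraries alone all 9 genes were called, limma called 7 and DESeq2 4. For testis minus the average of the 6 stages, among the 3 genes with counts in every group, Mael (−6.23, SE 1.19, adjusted p = 0.00624) and Ddx4 (−6.92, SE 1.43, adjusted p = 0.0117) were called and Pnldc1 (−2.24, SE 0.76, adjusted p = 0.175) was not, where 1.83% of all genes were called. The Ddx4 call was lost without any one of the 3 KO testis libraries (−7.27 to −6.49). The average includes the KO-54PEA pair that stood apart, with Ddx4 at 0 and 439 CPM and Mael at 146 and 0 CPM.

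Some of these rows lie over other genes. The Gtsf1 row overlaps Nckap1l, a gene of blood cells, by the start and end of the 2 genes. The strand setting of the counting is not given in the sources used here, and whether the 2 rows share reads was not tested. Nckap1l was at 137 to 247 CPM in WT-GV, 207 to 236 CPM in WT-1C-20PEA and 60.4 to 60.5 CPM in KO-1C-20PEA. At 10PEA it was at 184 to 233 CPM in WT and 77.2 to 110 CPM in KO, lower in KO where Gtsf1 was higher. It was at 27.4 to 63.98 CPM in WT-33PEA and 222 to 335 CPM in KO-33PEA, higher in KO there as Gtsf1 was. At 54PEA it was at 0 in WT and at 0 and 648 CPM in KO, unlike Gtsf1. In testis its WT libraries held 10.9 to 13.4 CPM and its KO libraries 1.60 to 2.52 CPM. Gpat2 and Fkbp6 each overlap an uncharacterised row, at no more than 6.34 CPM and 15.3 CPM in any library. In WT-54PEA the row over Fkbp6 was at 11.2 to 15.3 CPM and the Fkbp6 row at 5.35 to 11.5 CPM.

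For each gene, the most similar profiles over the 13 oocyte and embryo groups were sought among 10611 other genes by Pearson correlation of log2(mean TMM CPM + 1). Henmt1 was closest to Glrx (r = 0.99) and Fam114a2 (0.98), Gtsf1 to Zar1l (0.98) and Lmtk2 (0.98), and Ddx4 to Lin28a and Spry4 (both 0.97). Mov10l1 was closest to Parp9 (0.98) and Pi4k2b (0.96), and Pnldc1 to Miga2 (0.97) and Rab42 (0.96). Mael was closest to Psmb5 (0.96) and B4galnt1 (0.92), Fkbp6 to Erp29 (0.96) and Ndufv3 (0.94), Gpat2 to Ndufs4 and Tor2a (both 0.92), and Asz1 to Anapc7 (0.88) and Antkmt (0.86). With 13 groups and that many candidates, high values are found for most profiles.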

How the data were processed

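Long RNA was measured in 32 libraries, as read counts per gene that the authors made before they were deposited. The oocyte and embryo libraries, per the labels' protocols, followed a Smart-seq2-like method with ERCC spike-in RNA, and testis libraries used total RNA depleted of ribosomal RNA. Per the submitters' processing notes, Trim Galore, TopHat, STAR 2.7.1a and featureCounts were used upstream; the role of each, the genome build and the strand setting are not given in the sources used here. Of counts from 1 to 20, 69.5% to 82.1% were even in every library, so a count may not stand for 1 fragment, and limits from counts of 0 cover counting error only. Small RNA files were not used here.

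The 92 ERCC rows stayed out of library sizes, and 8 lines of 1 library that name no gene were dropped. The count test was the quasi-likelihood F test of edgeR 4.0.16, run in R 4.3.3 after filterByExpr, with Benjamini and Hochberg adjustment over all genes. Testis (6 libraries, 18024 genes), oocytes and embryos (26 libraries as 13 groups, 17294 genes) and all 32 libraries (20541 genes) were fitted apart; the common dispersions were 0.0806, 1.07 and 0.742. The pooled fits take 1 spread per gene for all groups. No 2 libraries of one group were identical or agreed within sampling noise. Where a group had no count of a gene, the fold is a bound against 3 counts over the group, and groups with 1 to 3 counts get no fold. On simulated data with 200 changed genes the testis fit recovered 98.5% of 4-fold changes, and the pooled fit at 33PEA recovered 0% of 4-fold and 34% of 64-fold changes. Alternatives were limma 3.58.1 with quality weights, DESeq2 1.42.0, other scalings and filters, smaller fits and leaving out each library. The 9 genes are named in every comparison, with up to 4 other pathway genes. The members, gene lists and alternatives were chosen with earlier results of these data known. Only tables of names were at hand for this species, so no sequence is shown, and levels of different genes are not compared, since no transcript length was used.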

Additional observations from a re-analysis of the deposited data

Results flagged for a closer look

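Gtsf1 differed between stages in its KO response (F test over 6 stages, adjusted p = 3.89e-04 by edgeR). Its KO libraries lay above WT at MII, 10PEA and 33PEA and below WT at 1C-20PEA and 54PEA. Of all genes tested, 6.51%, 13% and 20.2% lay above WT at MII, 10PEA and 33PEA. Below WT lay 26% at 1C-20PEA and 35.2% at 54PEA. Both KO-54PEA libraries, the pair that stood apart, had no Gtsf1 count, and the F test was not run without that stage. Gtsf1 also differed between testis and GV: the KO change in testis minus that at GV was −5.48 on the log2 scale (SE 0.71, adjusted p = 6.22e-04). In that fit 0.180% of all genes were called. This was not particular to Gtsf1, since every member was called when only the testis and GV libraries were fitted. The step of Gtsf1 from 1C-20PEA to 33PEA in KO minus that in WT was 4.91 (SE 1.05, adjusted p = 0.0169). This comparison was chosen after the data were seen. With ERCC scaling the difference was 2.72 (SE 2.20, adjusted p = 0.741 by edgeR) and was not called. The overlapping Nckap1l row took a like course, with means from 221 to 45.7 CPM in WT and from 60.4 to 279 CPM in KO. Whether these rows share reads was not tested.

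The KO change in testis minus the average over the 6 stages was −6.23 for Mael (SE 1.19, adjusted p = 0.00624) and −6.92 for Ddx4 (SE 1.43, adjusted p = 0.0117). The Ddx4 call was lost without any one of the KO testis libraries. The average includes 54PEA, where the KO libraries were at 0 and 439 CPM for Ddx4 and at 146 and 0 CPM for Mael. This comparison was not refitted without single 54PEA libraries. No group held 4 or more libraries, so no single library was tested against the rest of its group.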

How the results depend on the processing

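In testis 9 of 9 genes were called lower under every alternative run and without each library. With the replicate numbers as a block the counts of called members were the same in every comparison, for example 9 in testis and 3 at 33PEA; the same-numbered libraries did not deviate together (r from −0.07 to 0.03 in testis and from −0.03 to 0.14 at the stages, with 1 pair of numbers per stage), so the numbers were not taken as pairs, and not every testis library correlated best with its own number. Gene counts per ERCC count were nonetheless lower in replicate 2 than in replicate 1 of both genotypes at MII, 10PEA and 1C-20PEA.

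Other counts moved, and unless a value here shows it the cause was not tested. At 1C-20PEA DESeq2 called 1. At 33PEA ERCC scaling and the stage fitted alone called 0, and leaving out 1 library gave 1 to 2. At 54PEA limma and the stage fitted alone called 3 each, RLE size factors 4 and ERCC scaling 6 (1 higher and 5 lower, with Asz1 and Pnldc1 and without Ddx4), and leaving out 1 library gave 3 to 4. The average of 6 stages called 2 without a filter, 2 with limma, 2 with DESeq2, 3 with ERCC scaling, 0 without 54PEA and 0 to 3 without 1 library. The F test called 4 without a filter, 4 with limma, 4 with DESeq2, 3 with ERCC scaling and 1 to 4 without 1 library. From GV to MII in WT limma called 3, DESeq2 2, the fit of GV to 1C-20PEA 2 and the fit without 54PEA 1. From 1C-20PEA to 33PEA leaving out 1 library gave 1 to 3, and from 33PEA to 54PEA it gave 0 to 2, with 1 by limma and 0 with ERCC scaling. From GV to 54PEA limma called 8, DESeq2 6 and ERCC scaling 6. Testis minus GV gave 7 with limma, 4 with DESeq2 and 9 with 10 libraries. Testis minus the average gave 9 with limma, 7 with DESeq2, 5 without 54PEA and 1 to 2 without 1 testis or GV library. The added step comparison gave 4 without 54PEA and 0 with ERCC scaling, and the KO step from 1C-20PEA to 33PEA alone gave 1, and 2 under each of these. Among 30 called values, 183 refits under other settings kept 165 calls and lost 18, and 196 refits without 1 library kept 162, lost 33 and reversed 1: Ddx4 at 54PEA, 5.29 with all libraries and −7.07 to 8.36 without 1. Refits of the testis comparisons without each of the other 22 libraries were not run. The KO-54PEA libraries were the shallowest, with 2755240 and 1544198 gene counts, so the limit that a count of 0 allows is highest there.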
